A study of Mus musculus with 219 samples.

Results

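Genomic imprinting is the expression of a gene from only the maternal or only the paternal copy, set by DNA methylation marks laid down in the germ line. Imprinted genes lie in clusters that often pair protein-coding genes with long noncoding RNAs, and many are expressed in the brain, where they are known for roles in growth, feeding and maternal behaviour. The Prader-Willi region, which holds Snord116, is the cluster that the mice of this study were made to alter. The 43 genes described here are known mouse imprinted genes of other clusters, taken from a list of names and matched by identifier, and make up 43 of the 55487 genes counted. By their known expression, 19 are paternally expressed, 13 are maternally expressed and 11 depend on isoform or tissue. That assignment is background and was not checked for cortex, where single genes may not be imprinted: the counts do not separate the parental copies.

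RNA was sequenced from left prefrontal cortex of mice in 2 experiments. The atlas held 92 wild-type libraries (WT/WT, Snord116+/+Ctg-/-) from both sexes, at about 12 weeks of age, from mice kept in home cages on 12 h of light and 12 h of dark (12:12). They were collected at 8 times of day, counted in hours from lights on (zeitgeber time, ZT), with 6 libraries per sex and time and 5 at ZT18 and ZT21. The other table held 126 libraries, all from ZT6. These mice had been moved to light-controlled housing at about 8 weeks of age and entrained for 22 days to 12:12 or to 11 h of light and 11 h of dark (11:11). One set was then placed in indirect calorimetry chambers and collected in constant darkness. The other set had running wheels and was collected in its light cycle. Each set was split by sex, light cycle and 4 genotypes, of which WT/WT was as in the atlas. HET/WT mice lacked 1 copy of Snord116 (Snord116+/-Ctg-/-). WT/TG mice had both copies and carried Ctg, a transgene by the group's name (Snord116+/+Ctg+/-). HET/TG mice lacked the copy and carried Ctg (Snord116+/-Ctg+/-). Which parent passed on the Snord116 allele is not stated in the labels. There were 4 libraries per group and 3 in 2 groups of WT/TG males. The set cannot be told apart from the light at collection, and the names of the ZT6 libraries begin differently for each set and sex.

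Total counts per library, in mega-counts, ranged from 13 to 18.4 in the atlas and from 12.7 to 29.9 at ZT6. Cortical identity was checked with markers of excitatory neurons. In CPM (counts scaled to library size, with TMM factors), Slc17a7 had a mean of 1011 in the atlas and 1067 at ZT6, Cux2 156.8 and 169.7, Tbr1 151.2 and 147.3, and Neurod6 64.1 and 64.3. Markers of neighbouring tissue varied widely: in the atlas the sum of 6 striatal markers ran from 93.6 to 1178 CPM with a median of 237.5, and the sum of 7 choroid plexus markers from 4.22 to 978 with a median of 14.1. The genotype labels were checked with Snhg14, the transcript that hosts Snord116, at 189.7 ± 28.1 CPM (SD, n = 32) in WT/WT and 36.6 ± 24.8 (n = 32) in HET/WT libraries. Among the running wheel females entrained to 11:11, the library labelled replicate 3 of HET/WT held 167.2 CPM of Snhg14, which goes against its label, and genotype results are therefore given with and without it.

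The sequences below show what the members' own loci hold. Meg3, Peg3, Usp29 and Zdbf2 were the 4 of 33 members with a promoter in the RefSeq table (GRCm38.p6, 250 bases before to 50 after a start) that contained TGACGTCA, the palindromic cyclic AMP response element bound by CREB. Of all 32851 promoter windows of this length, 588 (1.79%) held it, against these 4 members among 52 member windows. The motif is in capitals and the rest in lower case, 5′ to 3′ on the strand of the gene. The windows lie at chr7:6730370-6730669 (minus strand) for Peg3, chr7:6730333-6730632 (plus) for Usp29, chr1:63273019-63273318 (plus) for Zdbf2 and chr12:109540746-109541045 (plus) for Meg3.
Peg3: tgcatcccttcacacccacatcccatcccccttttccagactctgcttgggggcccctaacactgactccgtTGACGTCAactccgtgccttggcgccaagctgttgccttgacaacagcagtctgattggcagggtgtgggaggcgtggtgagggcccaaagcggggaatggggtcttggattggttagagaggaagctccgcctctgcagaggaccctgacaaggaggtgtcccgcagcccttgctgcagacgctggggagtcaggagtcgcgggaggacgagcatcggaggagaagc
Usp29: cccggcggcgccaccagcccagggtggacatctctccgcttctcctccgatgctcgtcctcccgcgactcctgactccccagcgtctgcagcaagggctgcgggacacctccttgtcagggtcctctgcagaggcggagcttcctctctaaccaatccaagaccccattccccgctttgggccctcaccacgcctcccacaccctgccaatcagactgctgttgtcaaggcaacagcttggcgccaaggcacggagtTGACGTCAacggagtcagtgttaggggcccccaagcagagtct
Zdbf2: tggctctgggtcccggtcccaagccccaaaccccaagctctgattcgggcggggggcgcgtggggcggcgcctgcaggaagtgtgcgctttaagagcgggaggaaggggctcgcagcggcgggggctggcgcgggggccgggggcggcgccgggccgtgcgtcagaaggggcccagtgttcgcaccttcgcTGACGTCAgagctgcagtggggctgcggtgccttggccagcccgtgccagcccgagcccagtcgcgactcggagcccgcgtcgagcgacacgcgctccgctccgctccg
Meg3: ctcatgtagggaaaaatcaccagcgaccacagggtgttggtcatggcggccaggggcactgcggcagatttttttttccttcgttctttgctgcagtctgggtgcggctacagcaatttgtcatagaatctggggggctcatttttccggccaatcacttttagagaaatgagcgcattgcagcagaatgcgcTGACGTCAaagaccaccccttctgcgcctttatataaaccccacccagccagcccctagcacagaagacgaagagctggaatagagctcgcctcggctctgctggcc
The Peg3 and Usp29 starts of these windows lie 164 bases apart and face away from each other, so that their windows share 263 bases and the same copy of the motif. It begins 178 bases before the Peg3 start and 7 bases after the Usp29 start, 59 bases before the Zdbf2 start and 57 bases before the Meg3 start. The E-box CACGTG, read by CLOCK and BMAL1, was in the windows of 5 of the 33 members (Begain, Igf2r, Mcts2, Plagl1 and Ppp1r9a) and in 7.15% of all windows. The D-box TTATGTAA was in none of the member windows and in 0.94% of all. All 3 motifs were searched on both strands, and none of them overlaps another. A match is only a description of the letters in a window.

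Mirg, the last noncoding RNA of the Dlk1-Meg3 cluster (chr12:109729764-109749460, plus strand), spans hairpins of 26 mature microRNAs with 25 different seeds in the RefSeq table. They are shown because each has its sequence within the span of Mirg, while mature microRNAs were not counted in these data. Capitals mark the seed, bases 2 to 8.
miR-134-5p: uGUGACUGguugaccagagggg
miR-485-3p: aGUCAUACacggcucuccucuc
miR-377-3p: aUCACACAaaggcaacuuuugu
miR-410-3p: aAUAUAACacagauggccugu
miR-453: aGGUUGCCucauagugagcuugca
miR-496a-5p: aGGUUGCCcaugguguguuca
The first 4 have seeds of their own within Mirg, and miR-453 and miR-496a-5p share one.

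Levels of the 43 genes spanned several orders of magnitude. Per kilobase of exon, which allows genes to be compared, Nap1l5, a nucleosome assembly protein relative that lies within an intron of Herc3, stood highest at a mean of 115 CPM per kb in the atlas and 110 at ZT6. Gnas, which encodes the stimulatory G protein alpha subunit, followed with 74.2 and 87.5, then the noncoding RNA Peg13 with 71.5 and 66.1. Meg3, the maternal noncoding RNA of the Dlk1 cluster, had 56.9 CPM per kb in the atlas and 18.3 at ZT6, and Impact, a regulator of the eIF2 kinase GCN2, had 49.1 and 50.3. The genes near the low end included Igf2, Dlk1 and H19. Igf2, the insulin-like growth factor, had 0.338 and 0.109 CPM per kb, Dlk1, a Notch-related membrane protein, 0.248 and 0.169, and H19, the noncoding RNA beside Igf2, 0.11 and 0.0429.

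**Figure D1:**
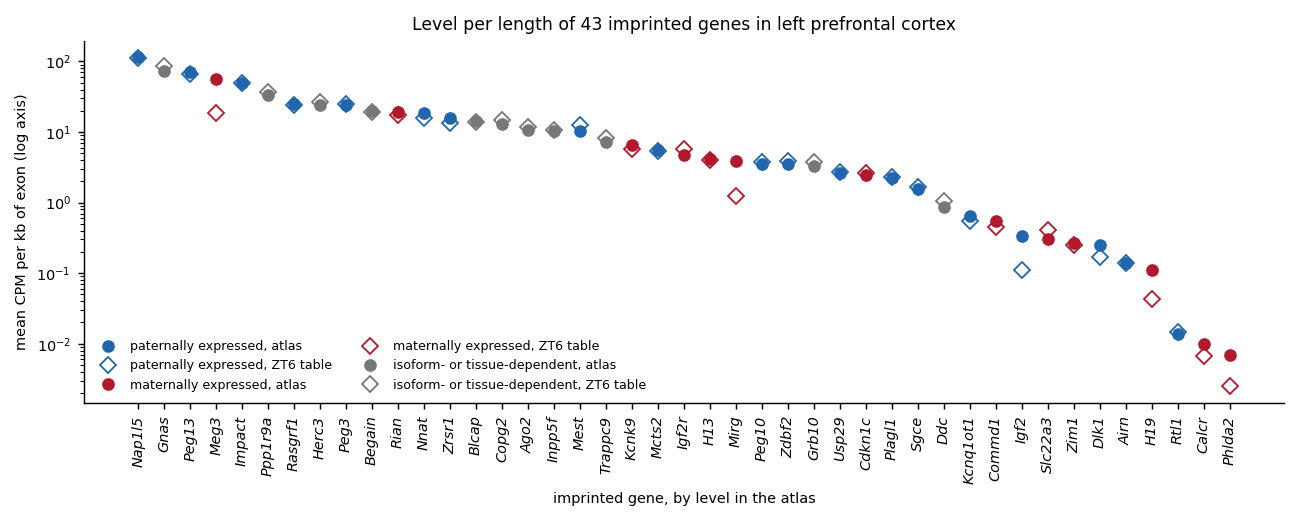
Mean level per kilobase of exon (CPM per kb, log axis) of the 43 imprinted genes, ordered by their level in the atlas (filled circles) with the ZT6 table beside it (open diamonds); colours give the known parental expression. Most genes sit at the same height in both tables, while Meg3, Mirg, Igf2 and H19 sit lower at ZT6.

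The filter on low counts removed 3 members from both tables. Rtl1, a retrotransposon-derived gene on the strand opposite Meg3's cluster RNAs, had 122 counts in all atlas libraries together and 208 at ZT6. Calcr, the calcitonin receptor, had 54 and 62, and Phlda2, a placental growth regulator, 11 and 6. H19 passed in the atlas with 379 counts and failed at ZT6 with 233. This left 40 members tested in the atlas and 39 at ZT6.

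The lead of some genes over others was steady and that of others was not. The coefficient of variation over the 92 atlas libraries was 4.95% for Gnas and 5.68% for Copg2, a coat protein subunit, and 198% for Dlk1, 77.9% for H19, 76.8% for Nnat, a neuronal proteolipid, and 65.8% for Slc22a3, an organic cation transporter. Between the tables, which were counted and scaled separately and were not tested against each other, mean Meg3 was 1030 CPM (391 to 1623) in the atlas and 332 CPM (107 to 729) at ZT6. Mirg was at 28.8 and 8.99 CPM, whereas Rian, the noncoding RNA between them, was at 348 and 320 CPM. Thus 2 of the 3 noncoding RNAs of this cluster were lower in the ZT6 table by about the same factor and the third was not. The lower level was not particular to the cluster. Malat1 and Miat, nuclear noncoding RNAs outside it, were lower at ZT6 too. Malat1 ran from 1629 to 8634 CPM in the atlas and from 648 to 4037 at ZT6, and Miat from 62 to 259.6 and from 23.7 to 108.8.

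Several members overlap neighbours, and the strand setting of the counting is not given in the sources used here, so their reads may be shared. Of the Igf2 exon bases, 64.5% are also exon of Gm49394 or Igf2os, of Cdkn1c 30.6% of Gm44732, of Mest 23.1% of Copg2 and of Gnas 22% of Nespas or Gm20721. Slc22a3 shares 9.31% with Plg, and Commd1 11.9% with Zrsr1, which lies inside it, or Gm28048.

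The genotypes were examined first, since the study asked how Snord116 genotype changes expression. None of the 39 members passed the test in HET/WT against WT/WT, where 0.0425% of all genes did (edgeR quasi-likelihood test, adjusted p under 0.05). The same held for WT/TG against WT/WT (background 0.0159%), HET/TG against WT/WT (0.0478%) and HET/TG against HET/WT (0.0106%). It also held for the differences of the HET/WT effect between light cycles, sexes and sets, where 0% of all genes passed. At an unadjusted p under 0.05 these 7 comparisons held 2, 2, 1, 0, 0, 3 and 1 members, and DESeq2 called none of the members in any of them. DESeq2 had 2, 2, 2, 0, 1, 3 and 1 members at an unadjusted p under 0.05.

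The member with the smallest p in HET/WT against WT/WT was Peg10, a retrotransposon-derived gene, with a log2 difference of 0.11 ± 0.05 (SE, adjusted p = 0.677), followed by Ddc, aromatic amino acid decarboxylase, with 0.17 ± 0.07 (adjusted p = 0.712). Over the 39 members the log2 differences ran from -0.32 to 0.35 with a median of 0.01, against 3.63e-05 over all genes. Among paternally expressed members 11 of 18 were above 0, and among maternally expressed members 5 of 10. Without the library that goes against its label, no member passed in any of the 6 comparisons that use HET/WT or HET/TG libraries. When no filter on low counts was used, Nnat passed in HET/WT against WT/WT with 0.19 (adjusted p = 0.000397), Nnat in HET/TG against HET/WT, Meg3 in the difference between sexes, and Dlk1 in the difference between sets. The filter had removed none of these genes, and Nnat had the same 0.19 in the main fit (edgeR adjusted p = 0.777). Without the filter p was far smaller elsewhere too. Meg3 by light cycle in the running wheel set had an edgeR adjusted p of 4.56e-16, where the main fit called no member.

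The light cycle was compared next, 11:11 against 12:12 over both sets, sexes and all genotypes. It changed 10 of the 39 members (25.6%), 8 upward and 2 downward, against 12.6% of all genes (7.49% upward and 5.15% downward). The median log2 difference was 0.03 over the members and -0.001 over all genes. The higher members were Grb10, an adaptor that restrains insulin signalling (0.13 ± 0.03, SE, adjusted p = 0.000244), Ago2, the microRNA effector (0.10 ± 0.02), the zinc finger gene Peg3 (0.09 ± 0.02), Ddc (0.16 ± 0.05), the zinc finger gene Plagl1 (0.11 ± 0.03), the exchange factor Rasgrf1 (0.08 ± 0.03), Zrsr1, a splicing factor retrogene (0.07 ± 0.02), and Impact (0.06 ± 0.02). The lower ones were Slc22a3 (-0.43 ± 0.13, adjusted p = 0.0214) and Rian (-0.09 ± 0.02, adjusted p = 0.00188). By the origin assigned as background, 5 of 18 paternally expressed members rose, 2 of 10 maternally expressed members fell, and 3 of 11 of the others rose. Whether these genes are imprinted in cortex was not tested. These shifts were small: except for Slc22a3, none exceeded 0.16 on the log2 scale.

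Grb10 had 30.9 ± 4.93 CPM (SD, n = 32) on 12:12 and 33.5 ± 5.36 (n = 31) on 11:11 in the calorimetry set. In the running wheel set it had 34.4 ± 3.54 (n = 31) and 37.8 ± 3.37 (n = 32). The ranges overlapped in both sets, and both sets moved the same way. Grb10, Ago2, Peg3 and Rian passed whichever of the 4 replicate numbers was left out, and the other 6 did not. A further setting used as a covariate each library's slope of log2 level on log2 exon length across genes, relative to the mean of all libraries. In it 4 members passed, of which Grb10, Rian and Ddc were among these 10.

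Within the calorimetry set 10 members passed, 9 upward and 1 downward, where 19.6% of all genes did (10.4% upward and 9.13% downward). This count fell to 3 without replicate 3 and was 7 to 9 without each of the others. With the length slope as a covariate it was 5, of which 2 were among the 10. Peg3 (0.14 ± 0.03, adjusted p = 0.000309) and Ago2 (0.15 ± 0.03, adjusted p = 7.95e-05) had the smallest p. Zim1, a zinc finger gene beside Peg3 (0.26 ± 0.10), Zdbf2, a paternally expressed growth gene (0.18 ± 0.05), and Peg10 (0.16 ± 0.05) passed here but not in the comparison over both sets, and Slc22a3 fell by 0.67 on the log2 scale. Within the running wheel set no member passed, where 0.069% of all genes did (9 members at an unadjusted p under 0.05, and none by DESeq2). That contrast between the sets is not itself a difference: only Meg3 and Cdkn1c, a cell cycle inhibitor, passed the test of the light cycle effect between sets, where 5.32% of all genes did.

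Peg3 showed where the light cycle difference was largest for its spread. In calorimetry females it ranged from 284 to 369 CPM with a median of 332 on 12:12, and from 342 to 442 with a median of 386 on 11:11 (n = 16 each), a log2 difference of 0.25 ± 0.04 (SE, adjusted p = 9.12e-06). In calorimetry males the means were 235 ± 26.9 and 238 ± 28.1 CPM. Running wheel females had means of 361 ± 17.9 and 388 ± 29.7 CPM, and their males 368 ± 22.8 and 368 ± 27.6 CPM. The ranges of the 2 light cycles overlapped even in calorimetry females, and the other 3 groups of mice had no difference past the threshold. In calorimetry females 7 members passed (12.3% of all genes), among them Ago2 (0.19), Kcnk9, a potassium channel (0.17), Mirg (0.42) and Nnat (-0.39). In calorimetry males 5 passed (13.5%), namely Ddc (0.33), Grb10 (0.17), Peg10 (0.20), Impact (0.12) and Slc22a3 (-0.87). None passed in running wheel females (0.276%) or males (0%). At an unadjusted p under 0.05 there were 12 and 3 members, and DESeq2 called 2 and 0.

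**Figure D2:**
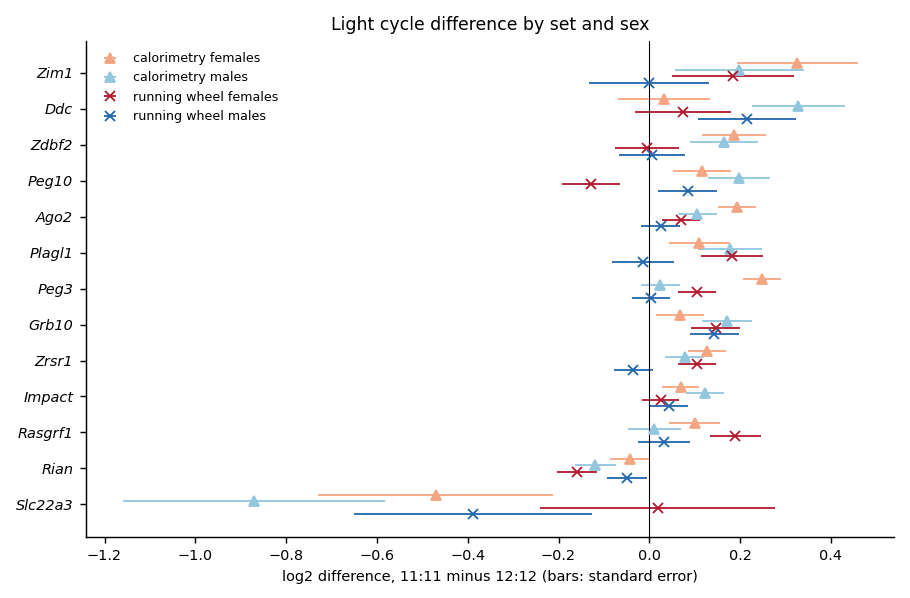
Fitted log2 difference between 11:11 and 12:12 (x axis, bars are standard errors) for 13 imprinted genes that passed in a light cycle comparison, in each set and sex. For Peg3 and Ago2 the calorimetry females lie farthest right, for Ddc the calorimetry males, and Slc22a3 lies left of 0 in 3 of the 4 groups of mice.

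Slc22a3 was scarce, with a mean of 1.93 ± 0.94 CPM on 12:12 and 1.28 ± 0.766 on 11:11 in the calorimetry set and 2.19 ± 0.92 and 2.01 ± 1.22 in the running wheel set. The striatal markers moved with it: the median of their sum was 229.5 and 179.9 CPM in the calorimetry set and 448.4 and 320.7 in the running wheel set. None of the 6 striatal markers passed over both sets, and all 6 were lower on 11:11. With the striatal and choroid plexus sums as covariates, a setting added after the data were seen, Slc22a3 fell by 0.24 on the log2 scale and did not pass (adjusted p = 0.112). In bulk tissue, fewer cells of a type and less RNA per cell cannot be told apart.

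Meg3 and Cdkn1c differed between sets in their light cycle effect. Meg3 averaged 286 ± 96.7 CPM on 12:12 and 343 ± 151 on 11:11 in the calorimetry set, against 381 ± 119 and 319 ± 113 in the running wheel set, a difference of 0.47 ± 0.13 between the log2 effects (SE, adjusted p = 0.0182). Cdkn1c went the other way, from 6.10 ± 1.63 to 5.39 ± 1.71 CPM and from 4.50 ± 0.836 to 5.31 ± 1.71, a difference of -0.39 ± 0.11 (adjusted p = 0.0279). In neither set alone did the light cycle pass for either gene. Cdkn1c followed the choroid plexus sum across libraries (Pearson r = 0.518 at ZT6 after removal of group means, n = 126, permutation p = 1e-05, the smallest possible). The medians of that sum were 16.6 and 11.4 CPM in the calorimetry set and 30.8 and 148.9 in the running wheel set. Its means were 124.7 and 204.9 in the calorimetry set, opposite in direction to the medians, and 192 and 337.2 in the running wheel set. Beside Meg3, Malat1, a nuclear noncoding RNA outside the imprinted clusters, had a difference of 0.45 in the same test (adjusted p = 0.026). The choroid plexus sum was in the covariate setting above, in which Meg3 and Cdkn1c still passed. Malat1 was not a covariate, and its part in the Meg3 difference was not tested. Leaving out 1 replicate number left 0 to 2 members past the threshold.

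Sets and sexes differed far more than light cycles. Calorimetry and running wheel libraries differed in 33 of 39 members, 8 higher and 25 lower in calorimetry, where 62.2% of all genes differed (29.3% higher and 32.9% lower). The median was -0.17 for the members and -0.02 for all genes. Commd1, a copper and NF-kappa-B regulator, had the highest difference at 0.75 ± 0.06 (SE), followed by Ddc at 0.44 ± 0.05, Begain, a postsynaptic scaffold-associated protein, at 0.26 ± 0.03, Cdkn1c at 0.22 ± 0.06 and Mcts2, a translation factor retrogene, at 0.21 ± 0.05. Dlk1 (-0.74 ± 0.22), Zdbf2 (-0.48 ± 0.04), Peg10 (-0.47 ± 0.03), Slc22a3 (-0.41 ± 0.13) and Igf2r, the growth factor's clearance receptor (-0.38 ± 0.03), were the lowest. The libraries also differed in how level changed with gene length: the mean slope was -0.0394 ± 0.0407 (SD) in the calorimetry set and 0.0394 ± 0.0351 in the running wheel set. With this slope as a covariate 12 members passed, and Begain was at -0.033. The share of all genes in that setting is not given here. Cell type markers differed between the sets too. Their summed level in the calorimetry and running wheel sets averaged 3645 and 2805 CPM for oligodendrocytes, 144.7 and 75.1 for blood, 475.3 and 546.8 for inhibitory neurons and 1.73 and 0.94 for hypothalamus. Their part in the members' differences was not tested.

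In females 22 members differed between sets (background 43.6%) and in males 34 (background 65%). The difference between the sexes in this respect is the same contrast as the sex difference between sets, tested below. Peg3 showed it in single libraries. Calorimetry males held 170 to 291 CPM with a median of 238, which overlapped slightly with calorimetry females (284 to 442, median 352) and lay below all of the running wheel males (318 to 432, median 363) and females (327 to 434, median 375). The ranges of the last 3 groups overlapped.

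Males and females differed in 30 members at ZT6, 10 higher and 20 lower in males (background 58.1%, with 27.6% higher and 30.5% lower), and the direction depended on the set. In the calorimetry set 33 members passed, 6 upward and 27 downward in males (63.1%, with 29% upward and 34.1% downward), with a median of -0.28. The extremes were Begain (0.64 ± 0.04, SE), Commd1 (0.63 ± 0.08), Cdkn1c (0.52 ± 0.08), Nnat (0.31 ± 0.10) and Ddc (0.30 ± 0.07) upward. Downward they were Kcnq1ot1, the noncoding RNA of the Cdkn1c cluster (-1.06 ± 0.09), Meg3 (-0.86 ± 0.09), Igf2 (-0.71 ± 0.22), Airn, the antisense RNA of Igf2r (-0.64 ± 0.21), and Peg10 (-0.60 ± 0.05). In the running wheel set 18 passed, 11 upward and 7 downward (33.8%, with 17.9% upward and 15.9% downward), and there Mirg (0.91 ± 0.11), Igf2 (0.80 ± 0.21) and Meg3 (0.67 ± 0.09) led upward. Commd1 was higher in males of both sets, 0.53 ± 0.08 in the running wheel set.

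The sex difference itself differed between sets in 29 of 39 members (51.8% of all genes). Meg3 held 403 ± 104 CPM (SD, n = 32) in calorimetry females and 223 ± 77.7 (n = 31) in calorimetry males, but 271 ± 59.7 (n = 32) in running wheel females and 430 ± 110 (n = 31) in running wheel males. The difference of log2 differences was -1.53 ± 0.13 (SE, adjusted p = 3.52e-18). Mirg followed the same order, with 10.7, 7.26, 6.30 and 11.8 CPM, and a difference of -1.48 ± 0.15. Rian did not, with 325, 332, 299 and 324 CPM. Kcnq1ot1 was low in calorimetry males alone, at 30.05 ± 10.2 CPM against 61.8 ± 15.3 in calorimetry females and 54.7 ± 10.7 and 56.1 ± 9.26 in running wheel females and males (-1.09 ± 0.13). Begain was high there, at 115 ± 23.3 CPM against 73.0 ± 5.51, 75.0 ± 6.53 and 76.8 ± 7.63 (0.60 ± 0.06).

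Nuclear noncoding RNAs outside the imprinted genes moved as Meg3 did. Malat1 had a sex difference of -0.68 in the calorimetry set and 0.70 in the running wheel set, and Miat, another nuclear noncoding RNA, -0.57 and 0.60. The mean slope on gene length did not reverse in this way and was lower in males of both sets. It was -0.00816 in calorimetry females, -0.0717 in calorimetry males, 0.0082 in running wheel males and 0.0697 in running wheel females. With the slope as a covariate 12 members passed in the sex comparison at ZT6 in place of 30. The share of all genes in that setting is not given here, so the fall is not shown to be particular to the members. All 29 members whose sex difference differed between sets still passed that test. The covariate could change that test little, because the slope's own sex difference was similar in both sets. Cell type markers, taken over both sets, differed between the sexes as well. The summed level of 3 oligodendrocyte markers averaged 3519 CPM in males and 2940 in females at ZT6, that of blood markers 144.3 and 76.5, and that of meningeal and perivascular fibroblast markers, most of it Ptgds, 523.9 and 425.7. Their part in these results was not tested.

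**Figure D3:**
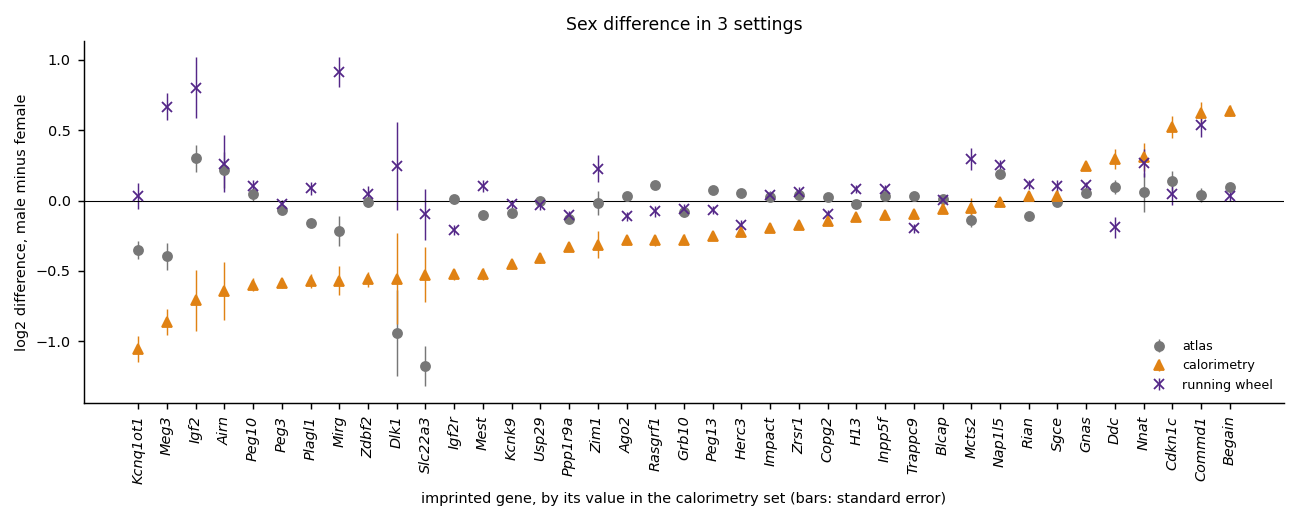
Fitted log2 difference between males and females (y axis, bars are standard errors) of 39 imprinted genes in the atlas (grey circles), the calorimetry set (orange triangles) and the running wheel set (purple crosses), ordered by the calorimetry value. Meg3, Mirg and Igf2 lie below 0 in the calorimetry set and above 0 in the running wheel set, and Begain is high in the calorimetry set only.

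The wild-type atlas gave the sex comparison without genotype, set or light cycle. It called 18 of 40 members, 6 higher and 12 lower in males, against 41.1% of all genes (21% higher and 20.1% lower). Slc22a3 had the lowest value, -1.18 ± 0.14 (SE, adjusted p = 7.12e-11), with 0.842 ± 0.417 CPM in males and 1.92 ± 0.95 in females (SD, n = 46 each). Below 0 followed Dlk1 (-0.94 ± 0.31), H19 (-0.56 ± 0.21), Meg3 (-0.40 ± 0.10, with means of 890 and 1170 CPM) and Kcnq1ot1 (-0.35 ± 0.06, with 53.0 and 67.6 CPM). Above 0 were Igf2 (0.30 ± 0.10), Nap1l5 (0.19 ± 0.02, with 226 ± 13.04 CPM in males and 198 ± 13.2 in females), Rasgrf1 (0.11 ± 0.02), Begain (0.10 ± 0.02) and Peg13 (0.07 ± 0.02). The ranges of males and females overlapped for Nap1l5 (197 to 249 and 165 to 230 CPM), which had the smallest p. Beside Igf2, the sum of meningeal and perivascular fibroblast markers averaged 502.9 CPM in males and 410.1 in females, and Igf2 followed this sum across libraries after removal of group means (Pearson r = 0.544 in the atlas, adjusted permutation p = 1.7e-05, and 0.305 at ZT6, adjusted permutation p = 0.000742). Most of this sum was 1 gene, Ptgds, with 379.4 of 456.5 CPM in the atlas mean. The other markers were not compared with Igf2 on their own.

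Striatal markers differed by sex in the same libraries. Their sum had a median of 459.8 CPM in females and 135.1 in males, and all 6 passed the test with lower values in males (median -1.73). Slc22a3 followed this sum across libraries, with Pearson r = 0.734 after group means were removed (n = 92, permutation p = 1e-05, the smallest that 100000 permutations can give). With the striatal and choroid plexus sums as covariates 3 members passed, Nap1l5 (0.10, adjusted p = 0.00121) and Kcnq1ot1 (-0.31, adjusted p = 0.0173) among them. Slc22a3 was then at -0.11 (adjusted p = 0.676) and Meg3 at -0.29 (adjusted p = 0.163). Without the female ZT21 replicate 4 library, a setting chosen after the data were seen, Dlk1 was at -0.60 (adjusted p = 0.0824).

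Rhythms of 24 h were sought in the atlas, where 19 of 40 members passed (47.5%) against 41.4% of all genes, a share near the background. Among paternally expressed members 11 of 18 passed, among maternally expressed members 2 of 11 and among the others 6 of 11. The fitted peaks of 15 of the 19 lay in the dark, between ZT12 and ZT24, as did those of 48.6% of all rhythmic genes. By peak-to-trough size Dlk1 stood first with a log2 value of 1.75 ± 0.41 (SE), then Nnat (1.26 ± 0.19), Zim1 (0.72 ± 0.12), Igf2 (0.61 ± 0.13), Zdbf2 (0.35 ± 0.05), Ddc (0.24 ± 0.07), H13, a signal peptide peptidase (0.22 ± 0.03), and Peg3 (0.22 ± 0.03). The other 11 ranged from 0.09 for Peg13 to 0.22 for Peg10. Dlk1, Nnat and Igf2 peaked near lights on (fitted peaks 0.15, 1.31 and 1.44 h after it), Zim1, H13 and Zdbf2 late in the night (22.3, 22 and 21 h), Peg3 at 18.3 h and Ddc at 14.5 h. The sum of meningeal markers beside Igf2, most of it Ptgds, also had its highest mean at ZT0, 505.6 CPM, and its part in the rhythm was not tested.

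H13 had the smallest p (adjusted p = 1.43e-09). It ranged from 34.5 to 44 CPM with a median of 40.1 at ZT0 and from 29.7 to 36.1 with a median of 33.3 at ZT9 (n = 12 each). Peg3 (adjusted p = 6.72e-08) ranged from 285 to 400 CPM with a median of 346 at ZT21 (n = 10) and from 278 to 330 with a median of 301 at ZT6 (n = 12). Zdbf2 (adjusted p = 2.53e-07) ranged from 39.8 to 66.4 CPM with a median of 51.6 at ZT21 and from 36 to 47.2 with a median of 39.1 at ZT9. For these genes neighbouring times overlapped and the extreme times overlapped in part. Of the members with a promoter window, the CREB motif was in 3 of 15 called rhythmic (Peg3, Usp29 and Zdbf2, the first pair sharing 1 copy) and 1 of 16 not called (Meg3). The E-box was in 2 of 15 and 3 of 16. Usp29 had a peak-to-trough of 0.12 ± 0.04 with a peak at 20.2 h.

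The rhythms of Nnat and Dlk1 were smaller without a few libraries. Nnat had medians of 41.1 CPM at ZT3 and 22.2 at ZT15, and 4 of 92 libraries held between 134.4 and 148.6 CPM. They were female ZT3 replicate 5, male ZT0 replicate 1, female ZT21 replicate 4 and female ZT0 replicate 6. Of these, 3 had choroid plexus sums of 416.4 to 761.4 CPM, and the fourth, female ZT21 replicate 4, had 20.2 CPM of choroid plexus and 752.1 CPM of striatal markers. That last library also had the highest sum of 6 hypothalamus markers of all 92, 19.7 CPM against 3 in the next, most of it Avp (10.3) and Oxt (8.17). Choroid plexus sums as high also occurred without high Nnat. At ZT15 and ZT18 the highest sums were 924.4 and 792.1 CPM, while Nnat reached at most 25.7 and 35.6 CPM at those times. Without the 4 libraries highest in Nnat, a setting chosen after the data were seen, 15 members passed. These libraries were picked by their Nnat level and lie near its fitted peak, so a smaller Nnat rhythm was built into this setting. Nnat was at 0.77, Zim1 at 0.53 and Igf2 at 0.44, all still past the threshold, and Dlk1 at 0.60 (adjusted p = 0.244). Dlk1 also missed the threshold without replicate 1 (1.27, adjusted p = 0.0536), and Ddc with time as 8 separate levels (adjusted p = 0.0964). The choroid plexus sum itself had medians of 56.7 and 59.4 CPM at ZT0 and ZT3 and 7.41 to 13.1 at the other times. With marker sums as covariates 18 members passed, 17 of them among the 19.

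**Figure D4:**
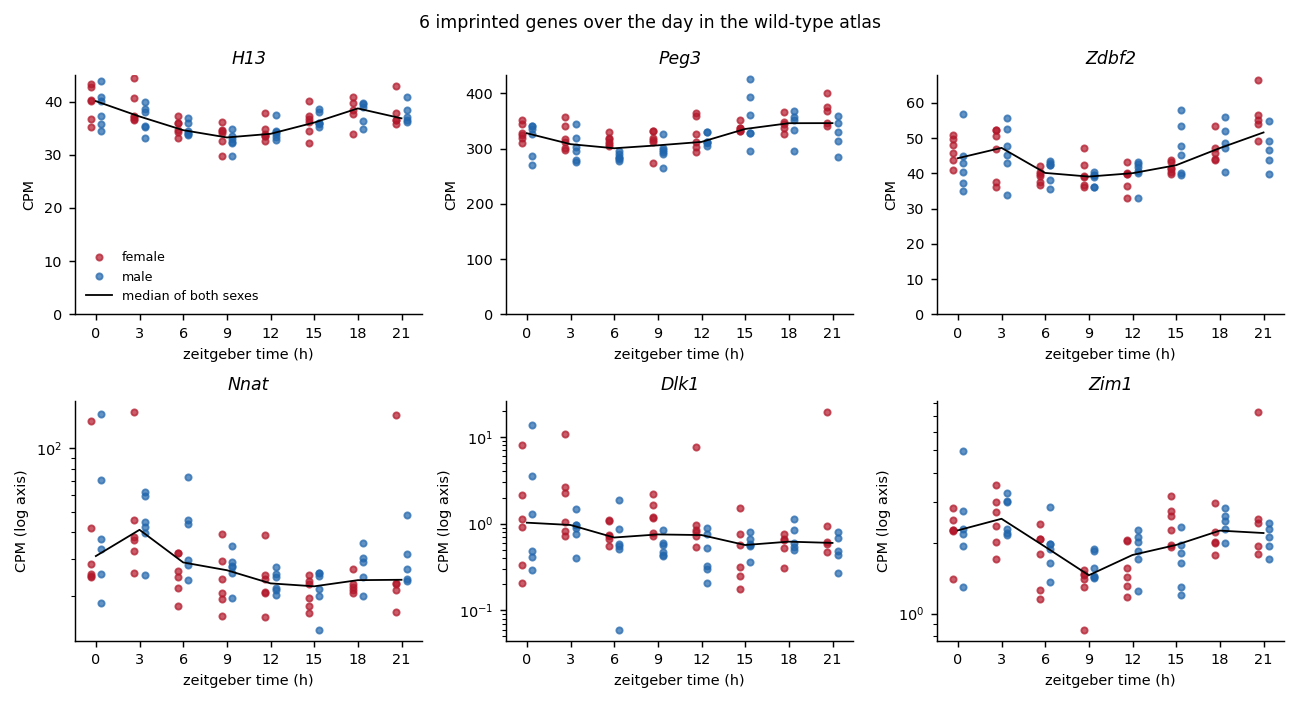
CPM of 6 imprinted genes by zeitgeber time (h) in atlas females (red) and males (blue), each point 1 library, with the median of both sexes as a line; the lower panels have log axes. H13, Peg3 and Zdbf2 dip in the light phase, while in Nnat, Dlk1 and Zim1 single libraries lie far above the median line.

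No member had a rhythm that differed between sexes, where 0.0756% of all genes did (edgeR; 4 members at an unadjusted p under 0.05, and none by DESeq2). Among the 21 members without a called rhythm were Meg3, Rian, Mirg, Gnas, Nap1l5 and Kcnq1ot1. Of the 10 members that passed in the light cycle comparison, Grb10, Ago2, Peg3, Plagl1, Zrsr1, Impact and Ddc were also called rhythmic in the separate atlas libraries, and Rian, Slc22a3 and Rasgrf1 were not. These 7 were 70% of the light cycle members and 36.8% of the rhythmic members. Of the 17128 genes tested in both tables, 1439 passed in both, 61.1% of the light cycle genes and 20.3% of the rhythmic genes. The difference between members and all genes was not tested.

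Neighbours in a cluster were compared across libraries after removal of group means, in 34 relations in all, 10 of them added after values had been seen. The noncoding RNAs of the Dlk1-Meg3 cluster varied together: Meg3 and Mirg had Pearson r = 0.964 in the atlas (Spearman rho = 0.967, n = 92) and 0.708 at ZT6 (rho = 0.72, n = 126), each with the smallest permutation p, 1e-05 (adjusted 1.7e-05). Without the 2 libraries farthest from the median in Meg3, r was 0.959 and 0.714, and within the calorimetry and running wheel sets it was 0.677 and 0.765. Meg3 and Rian had r = 0.919 and 0.553, Rian and Mirg 0.886 and 0.598. Meg3 followed Malat1 as closely (r = 0.963 and 0.885) and Miat (0.972 and 0.857), which lie outside the cluster.

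**Figure D5:**
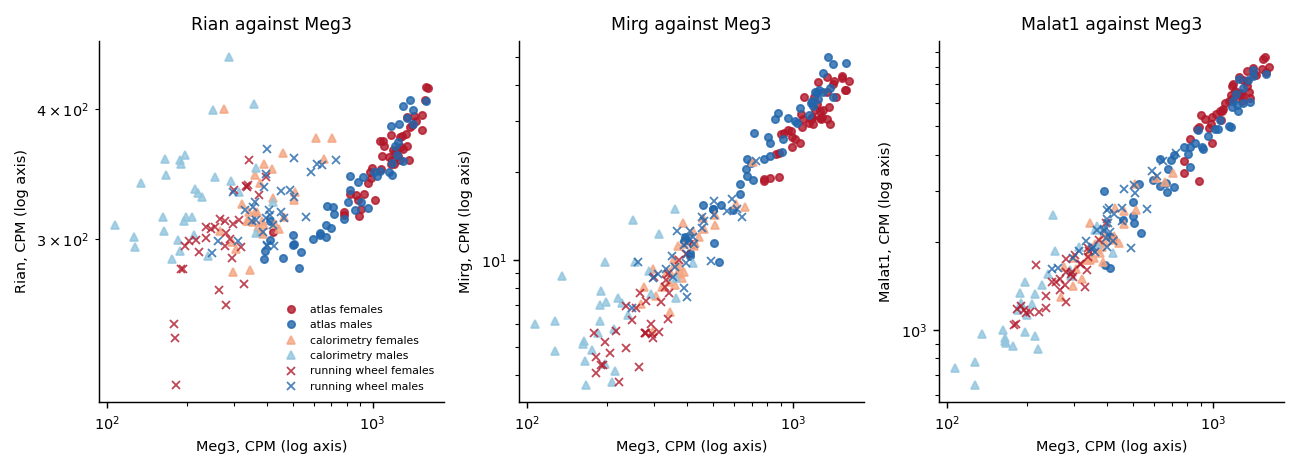
CPM of Rian, Mirg and Malat1 (y axes, log) against Meg3 (x axis, log), each point 1 library of the atlas, the calorimetry set or the running wheel set. Mirg and Malat1 rise with Meg3 along one line through both tables, and Rian rises with Meg3 in the atlas and scatters more widely at ZT6.

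Peg3 and Usp29, a ubiquitin protease gene transcribed in the opposite direction from the shared promoter region above, had r = 0.459 in the atlas (rho = 0.419) and 0.472 at ZT6 (rho = 0.391), with 0.532 and 0.344 within the sets (adjusted permutation p = 1.7e-05 in both tables). Nnat and Blcap, whose intron holds Nnat, had r = 0.785 and 0.402. Mest, a hydrolase gene, and Copg2, which share exon bases, had 0.402 and 0.22. Nap1l5 and Herc3, the gene that contains it, had 0.291 and 0.283 (adjusted permutation p = 0.00715 and 0.00169). Igf2 and H19 had 0.134 and 0.254, past the threshold at ZT6 only (adjusted permutation p = 0.228 and 0.00633). The next 3 pairs did not pass in either table. Peg10 and Sgce, which are transcribed from neighbouring starts, had r = 0.168 and 0.036 (adjusted permutation p = 0.134 and 0.711). Mcts2 and its host H13 had 0.103 and -0.121 (adjusted p = 0.358 and 0.208), and Zrsr1 and its host Commd1 -0.183 and -0.068 (adjusted p = 0.102 and 0.481). Peg13 and Trappc9, the gene that contains it, had r = 0.463 at ZT6 (adjusted permutation p = 1.7e-05), 0.645 in the calorimetry set and 0.107 in the running wheel set, but 0.007 in the atlas (adjusted permutation p = 0.946).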

How the data were processed

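The authors deposited 2 tables of read counts per gene, not normalized, for the atlas and for ZT6. Per the labels' protocols, total RNA was depleted of ribosomal RNA and made into directional libraries. The mm10 build is named in the submitters' processing notes beside STAR, Trim Galore, limma and SAMtools. Versions of these tools, the counting program and its strand setting, which bears on overlapping genes, were not given in the sources used here. Every column matched 1 sample by name. The sample of 1 running wheel male (12:12, WT/TG, replicate 3) had no column of counts and was not analysed here. Nothing in the labels pairs replicate numbers across groups: same-numbered libraries of different groups had deviations with median correlations of 0.0109, 0.0168 and 0.0092. No pair of libraries was identical.

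Identifiers were matched to GENCODE mouse release M21 (55227 of 55487 found). Each table was analysed in R 4.3.3 with edgeR 4.0.16: filterByExpr (17193 genes in the atlas, 18841 at ZT6), TMM scaling, robust quasi-likelihood tests and Benjamini-Hochberg adjustment over all genes tested, with a threshold of 0.05. At ZT6 each of the 32 groups had its own mean, and contrasts averaged over the other factors. The atlas model held sex and a cosine and sine of 24 h. Errors are standard errors of log2 differences or SD of CPM. P-values measure the spread between mice of a group. Correlations used log2(CPM + 0.5) and 100000 permutations. Levels per length used summed exon bases. Alternatives were RLE scaling, no filter, DESeq2 1.42.0, a replicate block, the length slope, leaving out each replicate number, time as 8 separate levels in the atlas, and the 3 settings marked in the text as chosen after the data were seen. The scripts were tested on simulated data.

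The 43 genes and the gene lists were chosen with earlier results of these data known. Every member is accounted for. Members that passed were described, and where more than 10 passed, the 5 largest differences in each direction (8 for the rhythm) got full values, with others chosen for their cluster. Nuclear noncoding RNAs Malat1 and Miat were chosen after values were seen.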

Additional observations from a re-analysis of the deposited data

Results flagged for a closer look

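At ZT21 the female replicate 4 library stood apart from the other 9 libraries of that time. It held 19.51 CPM of Dlk1 against 0.933 in the next highest library, 143 CPM of Nnat against 48.4, and 7.323 CPM of Zim1 against 2.55. The gap to its neighbour, relative to the whole range, passed Dixon's limit for 10 samples in all 3 genes. For the 8 genes with the largest rhythms, the 10 libraries of ZT18 and of ZT21 were tested in this way, 16 groups in all. For independent groups of normally distributed values, chance alone picks about 1 group in 20. These genes were chosen from the same libraries and all 3 hits are 1 library, so that rate is only a guide. The sum of 6 hypothalamus markers in female replicate 4 was 19.65 CPM, against 0.44 to 2.996 in the other 9 libraries and an atlas median of 1.06. Its striatal sum of 752.1 CPM was lower than that of female replicate 3, 766.7 CPM. The part of these markers in the 3 values was not tested.

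The light cycle effect differed between the sets for Meg3, by 0.47 on the log2 scale, and for Cdkn1c, by -0.39, where 5.32% of all genes passed. Malat1 and Miat, outside the imprinted genes, passed this test too, each with 0.45. The sex difference (males against females) in the calorimetry set, relative to that in the running wheel set, was higher for Begain by 0.60, for Ddc by 0.48, for Cdkn1c by 0.48 and for Gnas by 0.14. It was lower for Meg3 (-1.53), Igf2 (-1.51), Mirg (-1.48), Kcnq1ot1 (-1.09) and Airn (-0.90). Each of these was past the threshold in the edgeR test of the difference itself, which 51.8% of all genes passed for the sex difference.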

How the results depend on the processing

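Of 121 named results, RLE scaling kept the direction and call of 118, DESeq2 of 119, no filter of 114, marker covariates of 104 and leaving out replicate numbers 1 to 4 of 97 to 101. The replicate block kept 120, with 10 members for the light cycle, 33 for set, 29 for sex at ZT6 and 19 for the rhythm, and no other count moved by over 1.5 times. The replicate numbers are not shown to pair mice, so this block is a check only. With no filter, member counts became 1 for HET/WT against WT/WT, 1 for HET/TG against HET/WT, 1 each for its difference between sexes and sets, 3 for the light cycle in the running wheel set and 7 for its difference between sets, which DESeq2 put at 4. The length slope covariate kept 50 of 103 results. It left 4 members for the light cycle, 5 within calorimetry, 12 for set and 12 for sex. It turned Begain between sets to -0.033, Zdbf2 by sex to 0.023, Ago2 by sex in the running wheel set to 0.034 and, between sets in females, Igf2 to -0.043, Igf2r to 0.021, Zdbf2 to 0.18 and Rasgrf1 to 0.11. Marker covariates left 3 members for sex in the atlas. Leaving out a replicate number gave 4 to 7 members for the light cycle, 3 to 9 within calorimetry and 0 to 2 for its difference between sets. Member counts under other settings, here and above, stand without the share of all genes in the same setting. They do not show whether a change was particular to the members. The cause was not tested. Members below about 1 CPM, such as Igf2, Airn and H19, rest on few counts per library.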

Other observations

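Other imprinted genes and genes that keep imprints were taken from 2 further lists. Of 18 tested genes for imprint maintenance, 6 were higher on 11:11 than on 12:12 and none lower, where 12.6% of all genes passed (7.49% higher and 5.15% lower). They included Arid4a, a chromatin-binding protein (log2 difference 0.16), the insulator protein Ctcf (0.08) and the maintenance DNA methyltransferase Dnmt1 (0.09), with edgeR adjusted p of 4.74e-06, 0.00132 and 0.00158. None passed in the running wheel set, where only 0.069% of all genes did. In the atlas 8 of 18 had a rhythm (background 41.4%), led by Arid4a with a log2 peak-to-trough of 0.23, Tet3, which oxidises methylcytosine, with 0.26, and Ctcf with 0.11.

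Of 29 tested other imprinted genes, 5 (17.2%) were higher on 11:11 and none lower, where 7.49% of all genes were higher and 5.15% lower. Among the 5 were Cobl, an actin nucleator (0.08), Bcl2l1, a survival protein (0.07), and Smoc1, a matrix protein (0.14). In the atlas 11 of 27 had a rhythm, 40.7% beside the background of 41.4%. They included Dio3, the thyroid hormone inactivating enzyme of the Dlk1-Meg3 cluster (2.40), the potassium channel gene Kcnq1 (1.43) and Adam23, an adhesion protein (0.24). Dio3 and Kcnq1 were scarce, with atlas means of 0.653 and 0.324 CPM, so their values rest on few counts, whereas Adam23 had a mean of 228.4 CPM. No gene of either list passed in any of the 7 genotype comparisons, where 0% to 0.0478% of all genes did.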
